A study of Mus musculus with 35 samples.

Results

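Interneuron subtype markers are the 10 genes Pvalb, Vip, Lhx6, Reln, Cnr1, Nos1, Htr3a, Erbb4, Dlx1 and Lamp5, read here in hippocampal RNA of mice after an injection into the amygdala. They were taken by gene symbol from a fixed list of 10 names, and all 10 were found among the 32544 genes of the deposited tables. No expression value was used to choose them in the analysis, although the list was drawn up with earlier results of these data known.

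The mice were adult males of the strain C57BL/6JOlaHsd, injected into the amygdala with kainic acid (KA) or with phosphate-buffered saline (PBS). KA is a glutamate receptor agonist whose injection triggers status epilepticus, after which lorazepam was given. Hippocampi were taken after 24 h (acute) or 2 weeks (chronic, when the model has spontaneous seizures), and each library came from 1 mouse. Input libraries hold total RNA, and m6A libraries hold RNA pulled down with an antibody against N6-methyladenosine, the methyl mark that is most common inside messenger RNA. All groups shared an injection into the amygdala, so the PBS mice were injected controls and not naive animals. Which hippocampus was taken is not given in the sources used here.

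Most cortical and hippocampal interneurons are inhibitory neurons that release GABA, and they fall into classes by origin and by the proteins they make. Parvalbumin (Pvalb) marks fast-spiking basket and axo-axonic cells. The transcription factor Lhx6 marks cells born in the medial ganglionic eminence, Dlx1 is a transcription factor of interneuron development and survival, and Vip, Htr3a, Cnr1, Reln and Lamp5 are found in classes that come largely from the caudal ganglionic eminence. Nos1 makes nitric oxide and marks neurogliaform and ivy cells in the hippocampus, while Erbb4 is the neuregulin receptor that many interneurons carry on the membrane at excitatory synapses. Several of the genes are also used outside interneurons, since Cnr1, Nos1, Reln and Lamp5 are known from other neurons of the forebrain as well. In RNA of a whole hippocampus, fewer cells of a class and less RNA per cell cannot be told apart. In the m6A libraries, a change of transcript amount and a change of its methylation cannot be told apart either without the input.

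The m6A libraries came from 5 KA and 3 PBS mice at 24 h and from 6 KA and 5 PBS mice at 2 weeks, with 1652933 to 34564536 counts each. Of the 16 input libraries, 13 had at least 100000 counts and were used, and these held 3057578 to 12694434 counts. They came from 3 KA mice and 1 PBS mouse at 24 h and from 6 KA and 3 PBS mice at 2 weeks. The data columns of the m6A libraries begin with 3, 4 or 5, called library sets below, and the meaning of these numbers is not given in the sources used here. Set 3 holds KA mice only, set 4 holds both treatments at 24 h but only PBS mice at 2 weeks, and set 5 holds both treatments at 2 weeks but only a PBS mouse at 24 h. For 27 of the 35 libraries the assay was read from this way of naming columns. The columns of the input libraries used differ in naming too. Those of KA mice 6, 7 and 9 at 2 weeks and of KA mouse 8 at 24 h begin with the word Input. The others, all PBS mice among them, carry no prefix, so naming and treatment are partly confounded in input as well. The libraries of KA mouse 8 (24 h) hold over 25000 detected genes in both assays and a low sum of 8 pan-neuronal genes, 2328 CPM (counts per 1000000 counts of the library) in m6A against 5733 to 6575 in the 3 PBS mice. Over 25000 genes were also detected in input of PBS mouse 1 (24 h, 25529), the single PBS mouse there. The same held in m6A of PBS mouse 71 (25602) and KA mouse 79 (25717), both of set 4 at 24 h, and of KA mouse 6 (2 weeks, 27003). The m6A libraries of KA mice 67 and 98 at 24 h hold fewer than 2000000 counts.

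No member passed the test between KA and PBS in either assay at either time. Levels below are CPM, and changes are log2 fold changes from edgeR's quasi-likelihood test with Benjamini-Hochberg adjustment over all genes tested, with a threshold of 0.05. In m6A libraries at 24 h, 0 of 10 members passed, where 1 of 16470 genes did (0.00607%). At 2 weeks 0 of 10 members and 0 of 16157 genes passed (0%). In input libraries at 2 weeks 0 of the 9 members tested and 0 of 13752 genes passed (0%), and Htr3a was too low to be tested. In input libraries at 24 h, where a single PBS mouse was assumed to vary like the other groups, 0 of 10 members and 0 of 17644 genes passed (0%). At an unadjusted p under 0.05, the count of members was 0 of 10 in m6A at 24 h, 1 of 10 in m6A at 2 weeks, 2 of 9 in input at 2 weeks and 2 of 10 in input at 24 h. The shares of all genes under that limit were 5.31%, 5.01%, 14.1% and 9.23%. DESeq2 called 0 members in m6A at 24 h, in m6A at 2 weeks and in input at 2 weeks, where it called 156, 15 and 113 of all genes. Voom with sample weights called 2, 0 and 1 members there, and 1120 (6.8%), 2 and 342 (2.49%) of all genes.

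**Figure D1:**
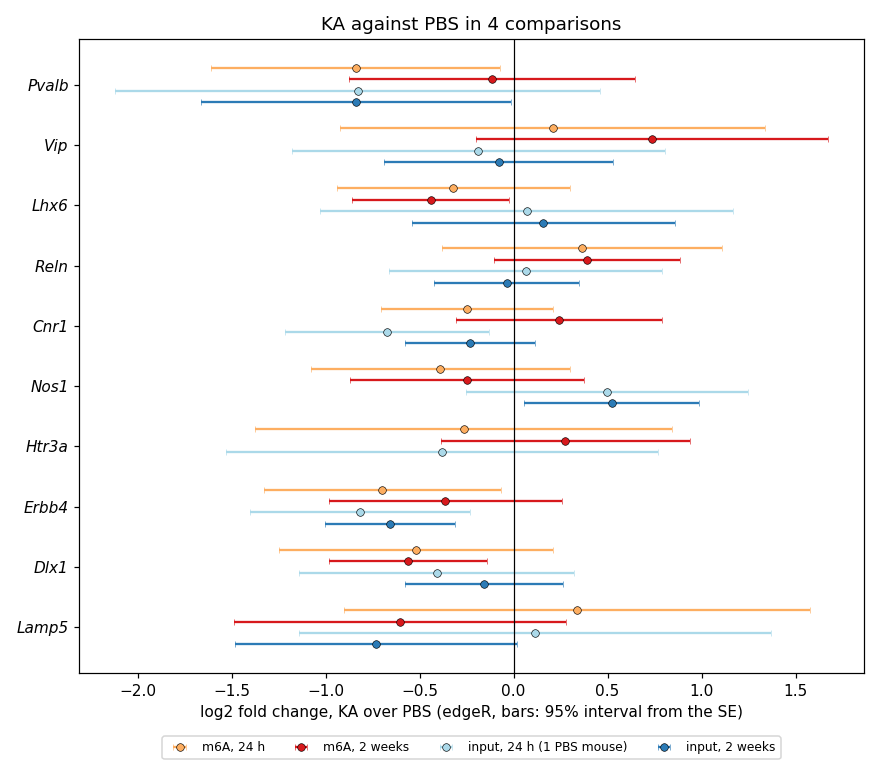
Log2 fold change of KA over PBS for each member (x axis) in 4 comparisons, with bars for an approximate 95% interval computed from the standard error. The bars use a normal limit and are somewhat narrow, so a bar that leaves out 0 is not a passed test. Pvalb in m6A at 24 h, for example, has a bar from -1.61 to -0.07 and an unadjusted p of 0.0568 in edgeR. Erbb4 lies below 0 in all 4, from -0.36 in m6A at 2 weeks to -0.82 in input at 24 h, and Htr3a has no point for input at 2 weeks.

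Erbb4, the neuregulin receptor, was the member with the smallest p in input at 2 weeks and had a lower mean in KA than in PBS mice in every comparison. Its gene spans 1077 kb of chromosome 1, from 68031884 to 69108576 in GRCm38.p6. In input at 2 weeks the 6 KA mice read 42.1, 76.0, 77.5, 78.9, 80.4 and 91.4 CPM. The 3 PBS mice read 103.5, 127.7 and 128.5 CPM. All KA libraries lay below all PBS libraries, which held for 3.8% of the genes tested. The log2 fold change was -0.66 (SE 0.18), with an unadjusted p of 0.00227 and an adjusted p of 0.242 in edgeR. With voom it was -0.69 and the adjusted p was 0.0319, in a fit that called 2.49% of genes. Without KA mouse 42, the lowest library, it was -0.55 with an adjusted p of 0.200. Among the mice whose input columns carry no prefix it was -0.73 (SE 0.23, adjusted p = 0.207 in edgeR). The sums of the 8 pan-neuronal genes in these libraries were 3685 to 4973 CPM in KA and 3916 to 4901 CPM in PBS mice, so those ranges overlapped. The 8 microglia genes summed to 120.6 to 299.1 CPM in KA and 90.7 to 130.1 CPM in PBS mice, with 5 of the 6 KA mice above every PBS mouse. The median sum of 8 astrocyte genes was 4660 CPM in KA and 3111 CPM in PBS mice. The sum of 5 thalamus marker genes was 94.0 to 125.3 CPM in KA and 124.9 to 195.4 CPM in PBS mice, although 3 of those 5 had a log2 fold change above 0. The part of these in the Erbb4 value was not tested.

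In input at 24 h Erbb4 read 51.3, 57.1 and 77.6 CPM in KA mice and 134.0 CPM in the single PBS mouse. Its log2 fold change was -0.82 (SE 0.30) with an unadjusted p of 0.0158 and an adjusted p of 0.436 in edgeR. The PBS library lay above all 3 KA libraries for 8 of 10 members, but 33.1% of all genes tested did the same. With 1 control mouse these levels describe that mouse, and its 8 pan-neuronal genes summed to 5824 CPM against 2229 to 4613 CPM in the KA mice. In this comparison scaling mattered as well. The median of all genes moved from 0.27 to -0.04 on the log2 scale when TMM scaling was replaced by library size, and the sign of 3 members (Lhx6, Reln and Lamp5) turned.

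In m6A libraries Erbb4 differed with the library set among PBS mice, and its lower mean in KA mice did not pass the test over all sets. At 24 h, the PBS mice of set 4 read 67.0 and 77.2 CPM and that of set 5 read 120.0 CPM. The KA mice of set 4 read 38.8 and 42.2 CPM, and those of set 3 read 44.2, 70.2 and 80.8 CPM. Within set 4 the KA and PBS mice did not overlap, whereas over all sets they did. The log2 fold change over all sets was -0.70 (SE 0.32, adjusted p = 0.963 in edgeR). Within set 4 alone it was -0.95 (SE 0.14, adjusted p = 0.0273 in edgeR), in a fit of 2 KA and 2 PBS mice that called 2.11% of genes. With the set as a block it was -0.95 (SE 0.23, adjusted p = 0.572 in edgeR). Voom gave -0.81 with an adjusted p of 0.0338 and called 6.8% of all genes.

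At 2 weeks Erbb4 in m6A libraries of set 5 read 88.9, 90.5 and 94.2 CPM in KA mice and 134.6, 143.3 and 176.6 CPM in PBS mice. The 2 PBS mice of set 4 read 63.1 and 74.6 CPM, below 5 of the 6 KA mice. The 3 KA mice of set 3 read 38.7, 101.6 and 106.4 CPM. The groups therefore overlapped over all sets but not within set 5. On the log2 scale the difference was -0.36 (SE 0.32, adjusted p = 0.878 in edgeR) over all sets and -0.66 (SE 0.20, adjusted p = 0.956 in edgeR) within set 5. Its sign was negative in all 18 alternative fits at 24 h and all 21 at 2 weeks. In set 5 at 2 weeks the 5 thalamus genes summed to 105.7, 122.2 and 140.6 CPM in KA and 167.2, 169.6 and 279.4 CPM in PBS mice, without overlap. The 8 astrocyte genes there summed to 4373 to 4990 CPM in KA and 2238 to 4108 CPM in PBS mice, also without overlap. The part of these sums in the members' values was not tested.

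**Figure D2:**
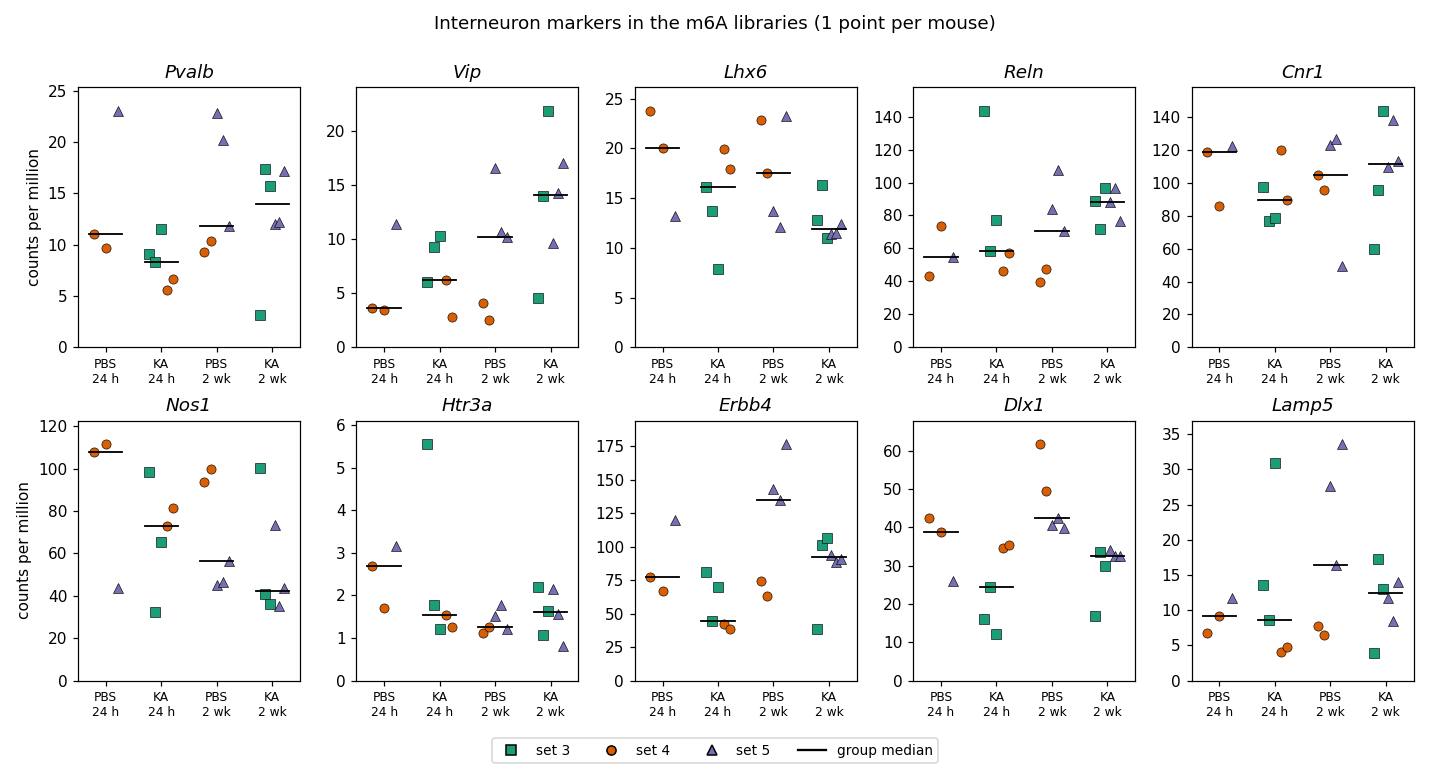
CPM of each member (y axis, 1 panel per gene) in each m6A library, by treatment and time, with the library set as symbol and the group median as a line. In the Erbb4 panel the PBS mice of set 4 (63.1 to 77.2 CPM) lie below those of set 5 (120.0 to 176.6 CPM), and KA mice lie below PBS mice of their own set where a set holds both at the same time.

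The set dependence was not particular to Erbb4. Over both times, 4 PBS mice of set 4 and 4 of set 5 have m6A libraries, and 5 of 10 members did not overlap between them, where 40.1% of all genes tested did not. Vip, the vasoactive intestinal peptide that marks interneurons which inhibit other interneurons, read 2.53 to 4.09 CPM in set 4 and 10.2 to 16.6 CPM in set 5. Nos1, the neuronal nitric oxide synthase, ran the other way, with 93.6 to 111.6 CPM in set 4 and 43.5 to 56.4 CPM in set 5. Lamp5, which marks neurogliaform cells, read 6.43 to 9.16 CPM in set 4 and 11.7 to 33.6 CPM in set 5. Pvalb read 9.24 to 11.0 CPM and 11.9 to 23.0 CPM. Across all 19 m6A libraries Vip and Nos1 ran opposite to each other, with a Pearson r of -0.84 of their log2 CPM. These libraries share the sets, so the value describes the sets as much as the mice. The sums of 12 excitatory neuron genes were 4922 to 5822 CPM in the PBS mice of set 4 and 1909 to 2464 CPM in those of set 5, and their part in the members' levels was not tested.

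Pvalb, the calcium-binding protein of fast-spiking cells, had a lower mean in KA than in PBS mice in all 4 comparisons and overlapped in 3 of them. In m6A at 24 h the KA mice read 5.60, 6.68, 8.31, 9.09 and 11.5 CPM and the PBS mice 9.66, 11.0 and 23.0 CPM. The single highest value was that of the set 5 PBS mouse. The log2 fold change was -0.84 (SE 0.39, adjusted p = 0.978 in edgeR). Voom gave -0.81 with an adjusted p of 0.0426, and set 4 alone gave -0.88 (SE 0.21, adjusted p = 0.0867 in edgeR). Without PBS mouse 1, the set 5 mouse, the value was -0.35. At 2 weeks in input Pvalb read 1.56, 4.64, 8.57, 10.4, 10.6 and 14.7 CPM in KA and 10.1, 18.2 and 18.8 CPM in PBS mice. The change there was -0.84 on the log2 scale (SE 0.42, adjusted p = 0.390 in edgeR), and the lowest value, of mouse 42, rests on 5 counts. In m6A at 2 weeks it was -0.12 (SE 0.39, adjusted p = 0.965 in edgeR), with KA mice from 3.15 to 17.3 CPM around a median of 13.9 CPM and PBS mice from 9.24 to 22.8 CPM. Without KA mouse 42 that value turned to 0.09.

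Lamp5 gave values of both signs. In m6A of set 5 at 2 weeks it read 8.50, 11.8 and 14.0 CPM in KA and 16.5, 27.6 and 33.6 CPM in PBS mice, without overlap. Over all sets at 2 weeks the change was -0.60 on the log2 scale (SE 0.45, adjusted p = 0.875 in edgeR), against -1.10 (SE 0.34, adjusted p = 0.956 in edgeR) in set 5 alone. In input at 2 weeks the KA mice ran from 3.43 to 19.8 CPM with a median of 11.8 CPM, and the PBS mice read 13.1, 21.9 and 24.4 CPM. In m6A at 24 h it was 0.34 (SE 0.63, adjusted p = 0.983 in edgeR) over all sets but -0.96 (SE 0.28, adjusted p = 0.131 in edgeR) in set 4, where KA mice read 4.09 and 4.83 CPM and PBS mice 6.70 and 9.16 CPM. The highest Lamp5 value of that time, 30.9 CPM in KA mouse 98 of set 3, rests on 51 counts, and without that library the value over all sets turned to -0.32.

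Vip did not differ between treatments beyond its spread. In m6A at 2 weeks KA mice ran from 4.54 to 21.9 CPM (median 14.1 CPM) and PBS mice read 2.53, 4.09, 10.2, 10.6 and 16.6 CPM. On the log2 scale KA over PBS was 0.74 (SE 0.48, adjusted p = 0.875 in edgeR), and 0.20 (SE 0.31) within set 5, where both treatments were present. At 2 weeks in input, where the 3 PBS mice read 12.3, 12.9 and 14.0 CPM and the KA mice 6.11 to 19.9 CPM, it was -0.08 (SE 0.31, adjusted p = 0.930 in edgeR).

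Nos1 had a higher mean in KA mice in input and a lower one in m6A. In input at 2 weeks KA mice read 36.0 to 79.3 CPM with a median of 48.8 CPM, and PBS mice 30.5, 36.9 and 43.4 CPM. The log2 fold change was 0.52 (SE 0.24), with an unadjusted p of 0.0460 and an adjusted p of 0.350 in edgeR. Without KA mouse 42, the highest, it was 0.35 with an adjusted p of 0.496. In m6A at 2 weeks it was -0.25 (SE 0.32, adjusted p = 0.897 in edgeR) over all sets and 0.13 (SE 0.30) within set 5. The change of m6A over input with KA was fitted only in the 9 mice with both libraries. That leaves out PBS mice 50 and 78 of set 4, which read 93.6 and 99.9 CPM for Nos1 in m6A. In that fit Nos1 was at -0.30 (SE 0.43, adjusted p = 0.9999 in edgeR).

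**Figure D3:**
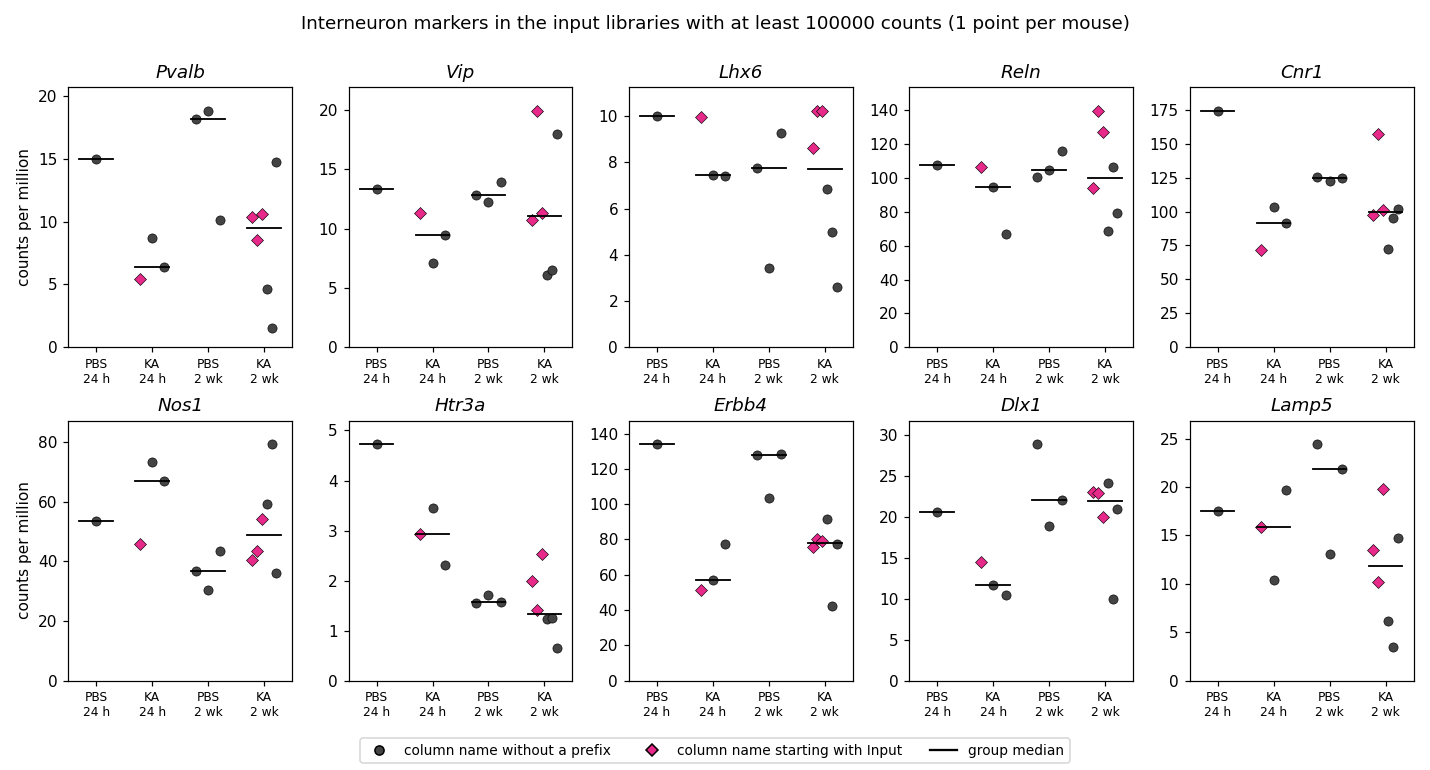
CPM of each member (y axis, 1 panel per gene) in each input library with at least 100000 counts, by treatment and time, with the way the data column is named as symbol and the group median as a line. Erbb4 of the 6 KA mice at 2 weeks (42.1 to 91.4 CPM) lies below that of the 3 PBS mice (103.5 to 128.5 CPM).

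Among the transcription factors, Dlx1 had the smallest p of the members in m6A at 2 weeks. The KA mice read 16.8, 29.9, 32.6, 32.6, 33.5 and 34.1 CPM and the PBS mice 39.8, 40.5, 42.4, 49.5 and 61.7 CPM. Every KA library lay below every PBS library over all sets, and Dlx1 was the single member of 10 for which this held, where 0.334% of all genes did so. The change on the log2 scale was -0.56 (SE 0.21), with an unadjusted p of 0.0200 and an adjusted p of 0.875 in edgeR. Within set 5 it was -0.23 (SE 0.19, adjusted p = 0.956 in edgeR), from 32.6, 32.6 and 34.1 CPM in KA against 39.8, 40.5 and 42.4 CPM in PBS mice. The 2 PBS mice of set 4, which have no KA mouse beside them at that time, held the highest values of the group. At 2 weeks in input Dlx1 overlapped, with KA mice at 9.99 to 24.2 CPM and PBS mice at 18.8, 22 and 28.9 CPM, and the change was -0.16 (SE 0.21, adjusted p = 0.767 in edgeR). In m6A at 24 h it was -0.52 (SE 0.37, adjusted p = 0.983 in edgeR).

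Lhx6, the factor of the medial ganglionic eminence, had a lower mean in KA mice in m6A but not in input at 2 weeks. In m6A at 2 weeks the KA mice read 10.9 to 16.3 CPM with a median of 11.9 CPM, and the PBS mice 12.1, 13.7, 17.6, 22.9 and 23.3 CPM. The PBS mice of set 4, which have no KA mouse beside them at that time, read 17.6 and 22.9 CPM. Within set 5 the KA mice read 11.42 to 12.35 CPM and the PBS mice 12.1 to 23.3 CPM, which overlapped. Over all sets the log2 fold change was -0.44 (SE 0.21, adjusted p = 0.875 in edgeR), and it ran from -0.56 to -0.12 in 21 alternative fits. In input it was 0.16 (SE 0.36, adjusted p = 0.870 in edgeR), from 8 to 81 counts per library, so the precision of the input value is low.

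Cnr1, the cannabinoid receptor of cholecystokinin basket cells, read 72.0, 91.9 and 103.1 CPM in input of KA mice at 24 h and 174.2 CPM in the PBS mouse. Its log2 fold change was -0.67 (SE 0.28), with an unadjusted p of 0.0296 and an adjusted p of 0.494 in edgeR. In input at 2 weeks 5 KA mice read 72.1 to 102.0 CPM and mouse 7 read 157.4 CPM, against 122.3, 124.8 and 125.5 CPM in PBS mice. The value there was -0.23 (SE 0.18, adjusted p = 0.559 in edgeR). In m6A it was -0.25 (SE 0.23) at 24 h and 0.24 (SE 0.28) at 2 weeks.

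Reln, the secreted glycoprotein of Cajal-Retzius cells and of several interneuron classes, was 0.36 (SE 0.38) in m6A at 24 h and 0.39 (SE 0.25) at 2 weeks on the log2 fold change scale, with adjusted p of 0.983 and 0.875 in edgeR. The value at 24 h was 0.05 without KA mouse 67 and negative in 3 of 18 alternative fits, down to -0.32. In set 4 at that time the means were 51.5 CPM in KA and 58.4 CPM in PBS mice. Its KA mice ran from 71.9 to 96.8 CPM at 2 weeks and its PBS mice from 39.7 to 107.6 CPM. In set 5 alone the means were 87.1 CPM in KA and 87.4 CPM in PBS mice. The sum of the 7 Cajal-Retzius genes, which include Reln, was 115.9 to 160.5 CPM in KA and 93.5 to 163.9 CPM in PBS mice at 2 weeks.

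Htr3a, the ionotropic serotonin receptor subunit, was the lowest in counts. It had 2 to 76 counts per m6A library and 2 to 60 per deep input library. In a library of 1652933 counts, a gene at a level under 1.81 CPM (3 counts) can be missed. Htr3a read 1.21 CPM in that library, from 2 counts, so its level there is imprecise. Such limits cover counting error only. On the log2 scale the change with KA was -0.27 (SE 0.57, adjusted p = 0.985 in edgeR) in m6A at 24 h and 0.28 (SE 0.34, adjusted p = 0.897 in edgeR) at 2 weeks. In input at 24 h it was -0.38 (SE 0.59, adjusted p = 0.821 in edgeR).

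The KA effect in m6A libraries was compared between the times with an interaction term. It passed for 0 of 10 members, 0 of which had an unadjusted p under 0.05, and for 1 of 17440 genes (0.00573%), with 0 members by DESeq2 or voom as well. The largest member values were -0.91 (SE 0.81) for Lamp5 and 0.74 (SE 0.60) for Pvalb. Without KA mouse 98 (24 h) that of Lamp5 was -0.24, and without PBS mouse 1 (24 h) that of Pvalb was 0.24.

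Counts of members without overlap between treatments differed with the sets compared. In m6A at 24 h over all sets, every KA library lay below every PBS library for 0 of 10 members and 1.09% of genes. In set 4 at 24 h this held for 7 of 10 members (Pvalb, Lhx6, Nos1, Htr3a, Erbb4, Dlx1 and Lamp5) and 16.1% of genes. In set 5 at 2 weeks it held for Erbb4, Dlx1 and Lamp5 and for 7.24% of genes. No test was made of these counts, the members are not independent of each other, and in set 4 another 35.7% of genes lay above in KA mice. The summed microglia genes in set 4 were 285.4 and 377.2 CPM in KA against 213.9 and 230.6 CPM in PBS mice, while the summed pan-neuronal genes, 5796 and 5918 CPM against 5733 and 6575 CPM, overlapped. The 12 excitatory neuron genes summed to 3337 and 3390 CPM in KA and 4922 and 5419 CPM in PBS mice, lower in KA without overlap. Astrocyte sums (5153 and 5244 CPM against 3562 and 3946 CPM) and endothelial sums (383.4 and 423.4 CPM against 268 and 282.2 CPM) were higher in KA without overlap. The part of these sums in the members' values was not tested.

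KA mouse 42 (2 weeks) stood apart in several members in both assays. Its input library read 1.56 CPM for Pvalb, 42.1 for Erbb4, 9.99 for Dlx1 and 3.43 for Lamp5, each the lowest of the 6 KA mice. In m6A it read 3.15, 38.7, 16.8 and 3.88 CPM for the same genes, again the lowest. For Nos1 it was the highest in both, at 79.3 and 100.4 CPM. Its 8 microglia genes summed to 485.2 CPM in m6A and 299.1 CPM in input, both the highest among KA mice, and its 8 astrocyte genes to 7428 and 7553 CPM, again the highest. Its pan-neuronal genes summed to 4794 CPM in m6A, the lowest of the 6, but to 3875 CPM in input, above KA mice 5 (3685 CPM) and 6 (3734 CPM). What part these had in its low markers was not tested.

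In the 9 chronic-stage mice with both libraries, m6A was also compared with input. The first fit took all libraries as independent, without the pairing by mouse, and a fit with the mouse as a block follows below. Over all 15722 genes tested 1772 differed (11.3%), 1157 with a higher and 615 with a lower share in m6A. Of the members, Lhx6 was higher and Reln lower in m6A. Lhx6 read 3.42, 7.77 and 9.26 CPM in input of PBS mice and 12.1, 13.7 and 23.3 CPM in their m6A libraries. In KA mice it read 2.62 to 10.2 CPM in input and 10.9 to 16.3 CPM in m6A. The ratio was above 1 in 9 of 9 mice, with a median of 1.76, and its highest value of 6.24 (KA mouse 5) rests on 8 input counts. The ratios use CPM by library size, and under that scaling 73.5% of all genes were higher in m6A than in input. The log2 difference was 0.77 (SE 0.23, adjusted p = 0.0342 in edgeR).

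Reln read 100.6, 104.6 and 115.7 CPM in input and 83.7, 107.6 and 70.8 CPM in m6A of PBS mice 2, 3 and 4. In KA mice it read 68.6 to 139.6 CPM in input and 71.9 to 96.8 CPM in m6A. The ratio was above 1 in 3 of 9 mice, with a median of 0.835. The log2 difference after TMM scaling was -0.48 (SE 0.15, adjusted p = 0.0394 in edgeR), and -0.27 with an adjusted p of 0.200 under scaling by library size. Neither gene passed when the input library of PBS mouse 2, PBS mouse 3 or KA mouse 42, or the m6A library of PBS mouse 4, KA mouse 5 or KA mouse 9, was left out. Reln alone was also lost without the input library of PBS mouse 4, KA mouse 6, KA mouse 7 or KA mouse 9, and without the m6A library of PBS mouse 2 or KA mouse 7. Over all 18 libraries left out in turn the log2 difference stayed at 0.60 to 0.93 for Lhx6, with adjusted p up to 0.108 in edgeR, and at -0.57 to -0.42 for Reln, with adjusted p up to 0.104.

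With the mouse as a block, as both libraries come from the same animal, 3 members passed where 17.1% of genes did. Lhx6 was 0.82 (SE 0.21, adjusted p = 0.0203 in edgeR), Dlx1 0.49 (SE 0.10, adjusted p = 0.00615 in edgeR) and Reln -0.48 (SE 0.13, adjusted p = 0.0223 in edgeR). Without the block Dlx1 was 0.48 (SE 0.17, adjusted p = 0.0707 in edgeR). Its ratio of m6A to input ran from 1.30 to 2.25 and was above 1 in 9 of 9 mice. Pvalb was above 1 in 9 of 9 mice too, at 1.07 to 2.59, but its log2 difference was 0.20 (SE 0.34, adjusted p = 0.748 in edgeR). Scaling by library size, which the ratios rest on, raised the median of all genes from 0.01 to 0.23 and put 73.5% of them above 0. How many of all genes had a ratio above 1 in every mouse was not counted. That scaling also turned the signs of Vip and Lamp5 and moved the split of calls to 3149 higher among 3384. Less RNA went into the m6A than the input libraries and the pull-down is labelled as being for polyadenylated RNA, so m6A against input also compares these preparations.

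**Figure D4:**
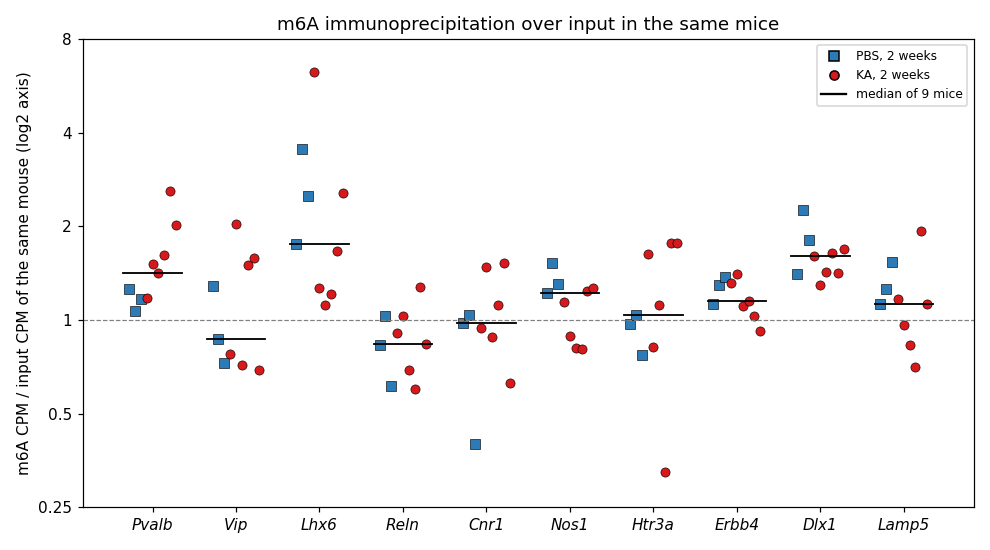
Ratio of m6A CPM to input CPM of the same mouse (y axis, log2 scale) for each member in 3 PBS and 6 KA mice at 2 weeks, with the median of the 9 mice as a line. All 9 mice lie above 1 for Lhx6, Dlx1 and Pvalb, and 6 of 9 lie below 1 for Reln. Under scaling by library size, as used for these ratios, 73.5% of all genes tested were higher in m6A, so 1 is not the midpoint.

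The change of m6A over input with KA passed for 0 of 10 members and 0 of 15722 genes (0%), and for 0 members at an unadjusted p under 0.05 and by DESeq2 or voom. The values ran from -0.45 (SE 0.46) for Lhx6 to 0.48 (SE 0.41) for Cnr1. Without the m6A library of PBS mouse 4 they were -0.11 for Lhx6 and 0.16 for Cnr1. Erbb4 was at -0.06 with an approximate 95% interval from -0.77 to 0.65, which is somewhat narrow as it uses a normal limit. A change of m6A relative to input that lies within that interval is not told from 0 here.

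GGACT is the best known sequence that the m6A writer complex methylates. It was counted on the sense strand of the canonical coding transcript of each member in GENCODE M39, whose build differs from that of the files, so no coordinates are taken from it. The motif stood 4 times in 3.60 kb of Lhx6, 6 times in 4.11 kb of Dlx1 and 19 times in 11.7 kb of Reln. That is 1.11, 1.46 and 1.62 per kb, against a median of 1.01 per kb over 21593 coding transcripts, of which 88.9% hold it. Erbb4 holds 10 (0.804 per kb), Pvalb 5 (1.59 per kb) and Htr3a 7 (2.98 per kb), while none was found in the transcripts of Vip or Lamp5. These matches are descriptions of the sequence, and a match is not a methylated site.

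In the m6A libraries, the genes most like Lhx6 over all 19 libraries were Fam160a1 (Pearson r of log2 CPM 0.91), Skida1 (0.87) and Aspdh (0.87). Those most like Reln were 1110008P14Rik (0.86), Gm7335 (0.82) and Arfip1 (0.81). Among the members, Pvalb and Erbb4 were alike with a Pearson r of 0.85, and Erbb4 and Lamp5 with 0.81. All of these points share the library sets and the depths.

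A wider list of 35 interneuron genes, which holds GABA enzymes and other class markers, gave 0 calls in each of the 4 KA comparisons. Its median log2 fold changes were -0.07 and -0.04 in m6A at 24 h and 2 weeks and 0.11 and 0.01 in input at 2 weeks and 24 h. The members' own medians were -0.29, -0.18, -0.16 and -0.29, beside 0.08, -0.001, 0.02 and 0.27 over all genes tested. The list of 17 neuregulin, reelin and cannabinoid partners gave 0 calls too. In m6A over input, where 11.3% of all genes were called and 615 of 15722 were lower, 1 gene of the wider list was higher and 2 were lower. Sst, the somatostatin peptide of dendrite-targeting interneurons, was the higher one, by 0.45 (SE 0.14, adjusted p = 0.0399 in edgeR). Synpr, a synaptic vesicle protein, was at -0.52 (SE 0.15, adjusted p = 0.0281 in edgeR). Of the 15 partners tested, 3 were lower, which were Mgll, the lipase of the endocannabinoid 2-AG (-0.70, SE 0.17, adjusted p = 0.0120 in edgeR), Adcyap1r1 (-0.45, SE 0.14, adjusted p = 0.0452 in edgeR) and Daglb, an enzyme that makes 2-AG (-0.34, SE 0.11, adjusted p = 0.0490 in edgeR). Of 8 microglia genes none passed in the KA comparisons, with medians of 0.31 and 0.72 in m6A and 0.93 and 0.86 in input at 24 h and 2 weeks.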

How the data were processed

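The authors sequenced input (total RNA) and m6A-immunoprecipitated libraries of mouse hippocampus, made with a stranded total RNA kit, and deposited raw counts per gene symbol for 4 lanes per library in 15 files. The build is mm10 per the submitters' processing notes, while neither the aligner, nor the counting program, nor its handling of strand is given in the sources used here. Here the lanes were summed, which gave 35 libraries from 140 columns, and 8 further columns of samples that the labels do not list were not used. Input libraries under 100000 counts (3 of 16) were left out, and CPM is the count per 1000000 counts of the library.

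Fits used edgeR 4.0.16 in R 4.3.3 with TMM scaling, filterByExpr, a robust quasi-likelihood test and Benjamini-Hochberg adjustment at 0.05, over the groups compared, and over all 13 deep input libraries for input at 24 h. SEs were taken as |log2 fold change| over the root of the F statistic. Alternatives used DESeq2 1.42.0, limma 3.58.1 (voom), other scaling and filters, the library set or mouse as a block and each library left out. Choices made after seeing the data were single sets, and leaving out shallow libraries, those with over 25000 genes detected or input columns with a prefix. A separate short edgeR fit was run on simulated counts for the KA comparisons in m6A and in input at 2 weeks. Those counts had a fixed dispersion and no library sets, so that run says nothing on the effect of the sets. Tables and plots used Python 3.11.15, pandas 2.3.3 and matplotlib 3.10.9.

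The members and lists were chosen with earlier results of these data known. All 10 members were named in each comparison, with up to 3 other interneuron genes and 3 partners per comparison past the threshold with the smallest p, and the 3 genes most like each member called in m6A. A gene that the rule names is not reported here. Mouse numbers pair input and m6A libraries because the labels give the same animal, and the correlation over 15492 genes of their deviations from group means ran from -0.08 to 0.60 in the 9 mice. The p-values of the KA comparisons rest on the spread between single mice. In m6A over all sets without the set as a block, that spread also holds differences between library sets. In input at 24 h the single PBS mouse has no spread of its own, so the spread comes from the other groups. Those of m6A over input without the mouse as a block treat both libraries of a mouse as independent. Positions are from RefSeq on GRCm38.p6.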

Additional observations from a re-analysis of the deposited data

Results flagged for a closer look

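Each member was tested for a value far from the rest of its group, in the 4 groups of 5 or 6 libraries, which made 40 group tests, and 8 values stood apart. Chance alone flags about 1 in 20 groups. KA mouse 42 at 2 weeks gave 5 of the 8. Its Erbb4 was 42.1 CPM in input (nearest other 76.0) and 38.7 CPM in m6A (nearest other 88.9). Its Dlx1 was 9.99 CPM in input (nearest other 19.9) and 16.8 CPM in m6A (nearest other 29.9), and its Pvalb was 3.15 CPM in m6A (nearest other 12). Lhx6 was 16.3 CPM in m6A of KA mouse 5 at 2 weeks (nearest other 12.8). Cnr1 was 157.4 CPM in input of KA mouse 7 at 2 weeks (nearest other 102.0). Htr3a was 5.56 CPM in m6A of KA mouse 67 at 24 h (nearest other 1.78), from 11 counts.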

How the results depend on the processing

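DESeq2, other scalings and filters and each library left out gave 0 members past the threshold in all 4 KA comparisons and in the time interaction. So did all m6A libraries in 1 fit for both m6A comparisons, the library set as a block for these and the interaction, and the mouse as a block for the change of m6A over input. Voom gave 2 members (Pvalb, Erbb4) in m6A at 24 h and 1 (Erbb4) in input at 2 weeks, and set 4 alone gave 1 (Erbb4) in m6A at 24 h. For m6A over input, 2 members passed, against 1 (Lhx6) without a filter, 2 (Lhx6, Dlx1) by library size and 3 (Dlx1 added) with DESeq2, voom or the mouse as a block (paired replicates). Leaving out 1 library gave 0 to 3, and 0 without the input library of PBS mouse 2, PBS mouse 3 or KA mouse 42 or the m6A library of PBS mouse 4, KA mouse 5 or KA mouse 9. Counts over all genes moved more: m6A at 24 h went from 1 to 156 (DESeq2), 1120 (voom), 356 (set 4), 45 without KA mouse 8 and 31 (all m6A libraries), m6A at 2 weeks from 0 to 15 (DESeq2), input at 2 weeks from 0 to 113 (DESeq2) and 342 (voom), input at 24 h from 0 to 201 (DESeq2), 1076 (voom), 180 without KA mouse 8 and 75 (shallow libraries included), the interaction from 1 to 62 (voom), and m6A over input from 1772 to 6148 (voom), 3384 (library size), 2696 (block) and 949 without the input library of PBS mouse 2. The causes were not tested. Input at 24 h could not be fitted without its single PBS library. Htr3a had 2 counts in its lowest libraries and was not tested in input at 2 weeks.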
